A study of Mus musculus with 6 samples.

Results

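The 4 TRBV genes described here, TRBV1, TRBV2, TRBV4 and TRBV5, lie at the upstream end of the mouse TCRβ locus. Their members were the productive TRB contigs with one of these V genes in 3 single-cell TCR libraries, and each cell was counted once, by the TRB contig with the most UMIs (unique molecular identifiers, which mark single RNA molecules). Of 1119 productive TRB contigs, 252 carried one of the 4 genes, and 222 of these were the leading TRB of their cell, while 30 were a second TRB. Of the 222 cells, 11 had no productive TRA, which left 211 member cells of 970 and 170 member clonotypes of 691. Cells of 1 library were put in a clonotype when their TRA and TRB had identical V and J genes and identical CDR3 bases, and a clonotype is called expanded when it has more than 1 cell.

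The study sorted CD4+ T cells that bind an I-Ab tetramer loaded with P2, a peptide of the retinal protein IRBP, from eye-draining LN. All mice were Aire GW/+ Lyn-/-, so that every group carried a mutant allele of Aire, the regulator of self-antigen expression in the thymus, and lacked the kinase Lyn. Mice were 9 wk old and were pooled by the presence or absence of uveitis. Dataset 1 and dataset 2 came from mice with uveitis, in pools of 7 and 8 mice whose order is not settled, and the dataset without uveitis came from 16 mice of the same genotype. With 2 pools against 1, no test between the conditions was made. Intervals in parentheses are exact (Clopper-Pearson) 95% binomial intervals and cover counting error only, not differences between mice or pools. Each pool mixes mice, so that a clonotype cannot be assigned to an animal. The contigs summed to 5302 UMIs in dataset 1, 7439 in dataset 2 and 21408 without uveitis, over 176, 324 and 470 cells with both chains. A single barcode occurred in 2 libraries, as a TRBV5 cell in dataset 2 and a TRBV1 cell without uveitis, with different CDR3 sequences.

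A TCRβ chain is made by joining 1 V segment to a D and a J segment, with bases trimmed and added at the joints, and the joined stretch encodes CDR3β, which faces the peptide. TRBV1 lies apart from the other V segments, beyond a group of genes that includes serine protease genes related to trypsinogen. TRBV1 is also among the β genes known from mouse iNKT cells, which carry an invariant TCRα.

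In GRCm38 all 4 genes lie on the plus strand of chromosome 6. TRBV1 spans 40891229 to 40891885, TRBV2 41047340 to 41047995, TRBV4 41059394 to 41059886 and TRBV5 41062332 to 41062803. TRBV1 ends 641.3 kb before the first D segment, TRBD1, and 155.5 kb before TRBV2, with 10 annotated genes between them. TRBV2, TRBV4 and TRBV5 end between 470.4 and 485.2 kb before TRBD1, and TRBV3, which is not a member, lies between TRBV2 and TRBV4. The germline ends of the V segments, from the codon of the conserved cysteine on, are shown because they set how each CDR3β begins. Capitals mark the base that differs from TRBV5.
TRBV1: tgcagtgcaga
TRBV2: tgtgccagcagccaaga
TRBV4: tgtgccagcagcTaaga
TRBV5: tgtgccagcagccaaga
TRBV2 and TRBV5 had the same 17 bases. TRBV4 differed from them by C13T, counted from the first base of the cysteine codon with the TRBV5 base first, and with this base the codon of bases 13 to 15 is a stop codon. TRBV1 had only 11 bases.

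The CDR3β of the member clonotypes with at least 3 cells are shown next, because they hold most of the expanded cells. Capitals mark the bases that match neither the germline V end nor the germline J start, which include D bases and added bases.
TRBV2-TRBJ2-7 of dataset 1: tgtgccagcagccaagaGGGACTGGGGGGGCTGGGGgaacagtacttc
TRBV4-TRBJ2-7 of dataset 2: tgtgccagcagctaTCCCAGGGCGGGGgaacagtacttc
TRBV5-TRBJ1-1 of dataset 2: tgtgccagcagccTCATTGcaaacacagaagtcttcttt
TRBV5-TRBJ2-1 of dataset 2: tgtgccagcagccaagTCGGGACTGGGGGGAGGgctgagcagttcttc
TRBV4-TRBJ2-2 of dataset 2: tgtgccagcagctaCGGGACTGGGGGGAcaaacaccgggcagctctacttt
TRBV4-TRBJ2-1 without uveitis: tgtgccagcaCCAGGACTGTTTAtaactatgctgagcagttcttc

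Together the 4 genes took nearly the same share of cells in every dataset, while the share of TRBV4 and that of TRBV2 differed between them. The 4 genes made up 38 of 176 cells in dataset 1, or 21.6% (15.8 to 28.4%), 71 of 324 in dataset 2, or 21.9% (17.5 to 26.8%), and 102 of 470 without uveitis, or 21.7% (18.1 to 25.7%). By clonotypes the shares were 24.6% (17.7 to 32.7%), 26.8% (19.7 to 34.8%) and 23.8% (19.8 to 28.3%). The intervals of all 3 datasets overlapped on both counts.

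TRBV4 made up 3.41% of dataset 1 (6 cells, 1.26 to 7.27%), 11.4% of dataset 2 (37 cells, 8.17 to 15.4%) and 2.98% of the dataset without uveitis (14 cells, 1.64 to 4.95%). Dataset 2 was above the other datasets, with no overlap of intervals. Of its 37 cells, 16 were of 1 clonotype and are not independent counts, so its interval by cells is too narrow. Without that clonotype, left out after seeing the data, the share was 6.82%, which lies inside the interval of dataset 1. Over the uveitis datasets TRBV4 averaged 7.41% ± 5.66 (SD, n = 2 pools), and dataset 1 lay 0.430 percentage points above the dataset without uveitis, against 8.44 points for dataset 2. By clonotypes, TRBV4 took 4.35% (1.61 to 9.22%) of dataset 1, 12% (7.13 to 18.5%) of dataset 2 and 2.92% (1.52 to 5.05%) without uveitis, so that the gap between dataset 2 and the dataset without uveitis was present when each clonotype counted once. The clonotype interval of dataset 2 overlapped that of dataset 1. TRBV4 ranked 2 of 17 V genes in dataset 2, level with TRBV20 by cells and with TRBV13-2 by clonotypes, and ranked 13 of 21 by cells without uveitis.

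For TRBV2, dataset 2 had the lowest share. TRBV2 made up 7.39% of dataset 1 (13 cells, 3.99 to 12.3%), 1.23% of dataset 2 (4 cells, 0.337 to 3.13%) and 7.23% of the dataset without uveitis (34 cells, 5.06 to 9.96%). Dataset 2 was below both other datasets by cells. By clonotypes the shares were 7.25% (3.53 to 12.9%), 2.82% (0.773 to 7.06%) and 8.27% (5.80 to 11.4%), and all 3 intervals overlapped.

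TRBV5 had a similar share in each dataset, with 13 cells or 7.39% (3.99 to 12.3%), 26 cells or 8.02% (5.31 to 11.5%), and 34 cells or 7.23% (5.06 to 9.96%). Its mean over the uveitis datasets was 7.71% ± 0.451 (SD, n = 2 pools). TRBV1 was found in 6 cells or 3.41% (1.26 to 7.27%), 4 cells or 1.23% (0.337 to 3.13%), and 20 cells or 4.26% (2.62 to 6.50%). The TRBV1 intervals overlapped between all datasets. With at least 2 UMIs required per contig, the TRBV1 share of dataset 1 was 1.27% of cells and 1.65% of clonotypes. Within dataset 1, TRBV2 and TRBV5 had equal counts, as did TRBV1 and TRBV4, and all 4 intervals overlapped. Within dataset 2, TRBV4 and TRBV5 overlapped with each other and not with TRBV1 and TRBV2, and without uveitis TRBV2 and TRBV5 did not overlap with TRBV4.

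**Figure D1:**
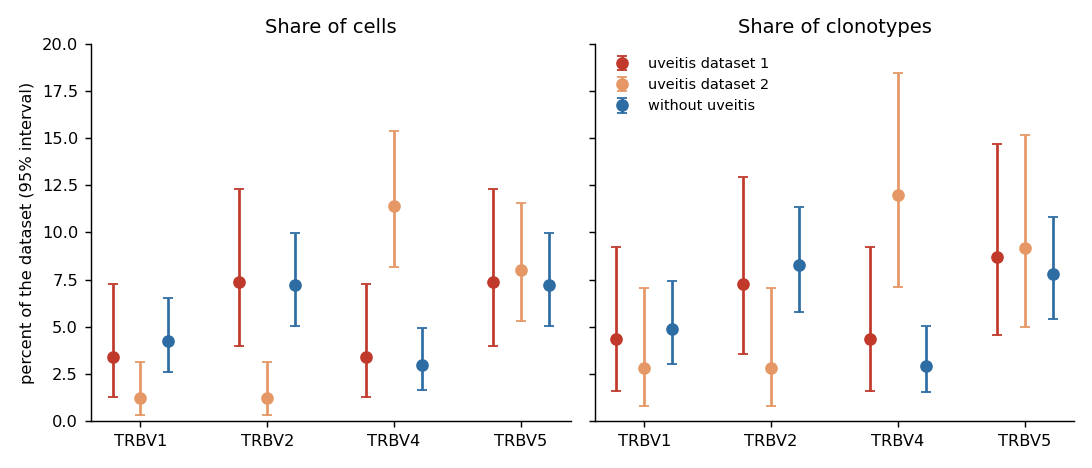
Share of cells (left) and of clonotypes (right) with each TRBV gene, in percent of the dataset, with exact 95% intervals as bars. TRBV4 of dataset 2 stands at 11.4% of cells and 12% of clonotypes, and TRBV5 lies between 7.23 and 8.02% of cells in all datasets.

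Likeness to other TRBV genes was measured as the sum over the 3 datasets of absolute differences in share of clonotypes, among 16 other genes found in every dataset. TRBV1 was nearest to TRBV13-3, at 1.43 percentage points, and to TRBV16, at 1.67 points. TRBV5 was nearest to TRBV19, at 3.79 points, and TRBV20, at 4.54 points. TRBV2 was nearest to TRBV19, at 4.49 points, and TRBV15, at 5.81 points. TRBV4 had no gene as near, since TRBV13-1 lay at 8.74 points and TRBV20 at 8.94 points.

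TRBV1 had no expanded cell in any dataset, with 30 cells in 30 clonotypes, and 0 of 30 cells allows a share of up to 10.0% when set at 3 counts (exact upper bound 11.6%). The genes nearest to TRBV1 in share were close to this. TRBV13-3 had 12 cells in 12 clonotypes over the uveitis datasets and 21 in 20 without uveitis, and TRBV16 had 8 in 8 and 22 in 21. Among TRBV2, TRBV4 and TRBV5 the highest share was that of TRBV2 in dataset 1, TRBV5 in dataset 2 and TRBV4 without uveitis. The intervals of these genes overlapped in every dataset, so that no order between them was resolved. In dataset 1, 4 of 13 TRBV2 cells were expanded, all of a single clonotype, or 30.8% (9.09 to 61.4%). Of the TRBV4 cells it was 0 of 6 (0 to 45.9%), and of the TRBV5 cells 2 of 13, or 15.4% (1.92 to 45.4%). In dataset 2, 0 of 4 TRBV2 cells were expanded (0 to 60.2%), 23 of 37 TRBV4 cells, or 62.2% (44.8 to 77.5%), and 18 of 26 TRBV5 cells, or 69.2% (48.2 to 85.7%). The intervals of TRBV4 and TRBV5 overlapped in that dataset. Without uveitis, 0 of 34 TRBV2 cells were expanded (0 to 10.3%), 3 of 14 TRBV4 cells, or 21.4% (4.66 to 50.8%), and 4 of 34 TRBV5 cells, or 11.8% (3.30 to 27.4%).

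By dataset, 6 of 38 member cells were expanded in dataset 1, or 15.8% (6.02 to 31.2%), 41 of 71 in dataset 2, or 57.7% (45.4 to 69.4%), and 7 of 102 without uveitis, or 6.86% (2.80 to 13.6%). Dataset 2 was above both others without overlap, and dataset 1 overlapped with the dataset without uveitis. Cells with other TRBV genes were expanded at 32.6% (24.9 to 41.1%), 70.0% (63.9 to 75.5%) and 19.8% (15.9 to 24.3%). The share of the 4 genes was below that of the other genes in every dataset, and only without uveitis did the intervals not overlap. There, 18 of the 73 expanded cells with other TRBV genes came from a single clonotype. Cells of a clonotype are not independent counts, and the share without that clonotype was not computed. At an equal number of 176 cells, the expected share of member cells was 52.0% in dataset 2 and 3.25% without uveitis.

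**Figure D2:**
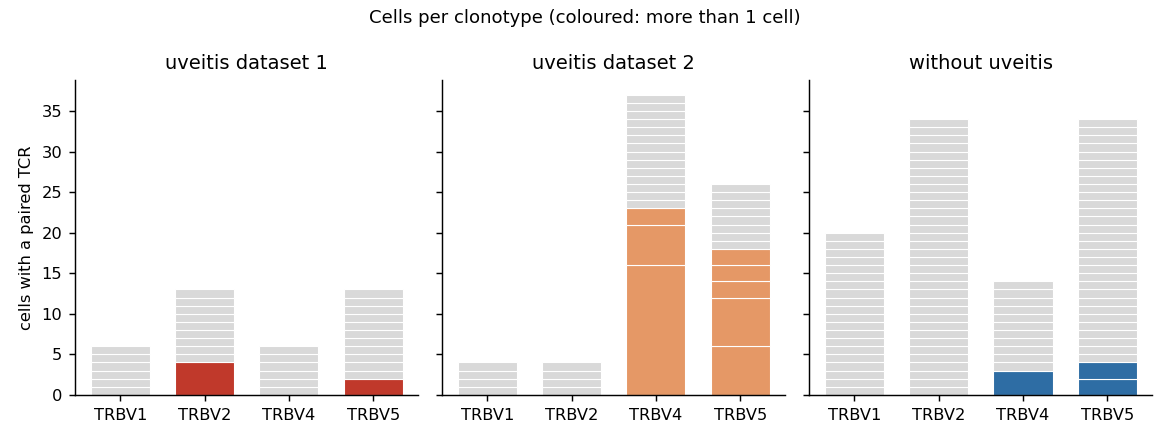
Cells of each TRBV gene in each dataset, stacked by clonotype, with clonotypes of more than 1 cell coloured and single cells in grey. The coloured blocks of dataset 2 hold 23 TRBV4 cells and 18 TRBV5 cells, and TRBV1 has none in any dataset.

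Of the expanded clonotypes, the largest was TRBV4-TRBJ2-7 with TRAV12-2 and TRAJ22 in dataset 2, with 16 cells or 4.94% (2.85 to 7.90%) of that dataset. TRBV4-TRBJ2-2 with TRAV9-1 and TRAJ31 had 5 cells, or 1.54% (0.503 to 3.56%). The TRBV5 clonotypes of dataset 2 with TRBJ1-1, TRAV4-4-DV10 and TRAJ43, and with TRBJ2-1, TRAV12D-3 and TRAJ23, had 6 cells each, or 1.85% (0.683 to 3.99%), and 4 further clonotypes of dataset 2 had 2 cells each. Without the largest clonotype, TRBV4 took 6.82% of the cells of dataset 2, and 45.5% of the remaining member cells were expanded. In dataset 1, TRBV2-TRBJ2-7 with TRAV9-4 and TRAJ31 had 4 cells, or 2.27% (0.623 to 5.72%), and TRBV5-TRBJ2-5 with TRAV9-1 and TRAJ22 had 2 cells. Without uveitis, TRBV4-TRBJ2-1 with TRAV9-4 and TRAJ31 had 3 cells, or 0.638% (0.132 to 1.85%). Also without uveitis, TRBV5-TRBJ2-7 gave 2 clonotypes of 2 cells each, with TRAV9-1 and TRAJ43 and with TRAV6-6 and TRAJ44, and the latter had a CDR3α of only 18 bases.

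The germline end of TRBV4 was never kept whole. Of 35 TRBV4 clonotypes, 0 matched all 17 germline bases, and none matched more than 14. A full match was found in 18 of 48 TRBV2 clonotypes, or 37.5%, in 21 of 57 TRBV5 clonotypes, or 36.8%, and in 12 of 30 TRBV1 clonotypes. TRBV4 clonotypes were a median of 4 bases short of the germline end, against 1 base for each of the other genes. A match of 15 bases would keep the stop codon at bases 13 to 15, and productive contigs hold no stop codon, so the selection of productive contigs sets this limit for TRBV4.

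**Figure D3:**
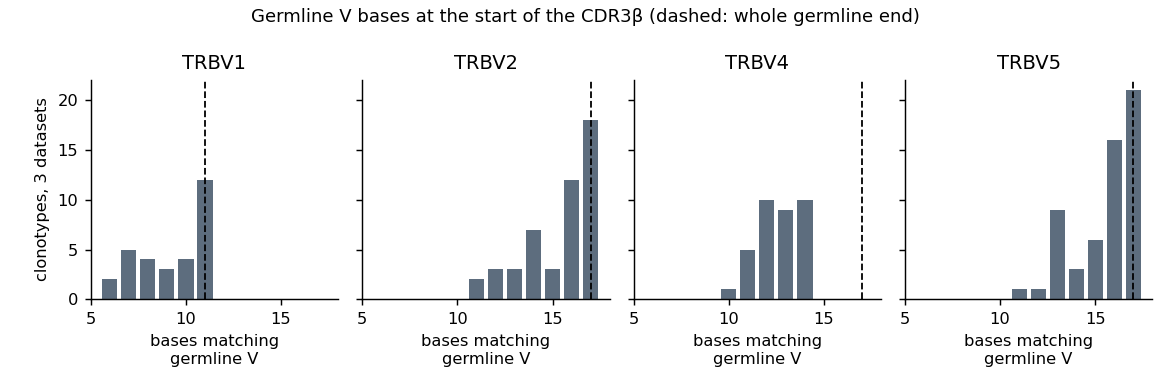
Number of clonotypes over the 3 datasets by the count of CDR3β bases that match the germline V segment from its cysteine codon, with a dashed line at the length of the germline end. TRBV4 reaches at most 14 of 17 bases, while the highest bar of each other gene stands at the dashed line.

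CDR3β length differed mainly for TRBV1. TRBV1 clonotypes had a median of 13, 11.5 and 12 residues in dataset 1, dataset 2 and without uveitis, TRBV2 14, 15 and 14, TRBV4 13.5, 14 and 15, and TRBV5 14.5, 15 and 15. The other TRBV genes had a median of 14 in every dataset. TRBV1 was the shortest of the 4 genes in each dataset, and over all datasets its 30 clonotypes ranged from 9 to 14 residues, against 13 to 17 for the 57 of TRBV5. The bases matching neither V nor J had a median of 8.5 for TRBV1, 8 for TRBV2, 13 for TRBV4 and 9 for TRBV5 over the datasets, and 10 for the other TRBV genes. This order did not hold in each dataset, since in dataset 1 the median was 14.5 for TRBV1 and 8.5 for TRBV4.

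TRBJ partners came mostly from the TRBJ2 cluster. In dataset 1, 26 of 34 member clonotypes used TRBJ2, or 76.5% (58.8 to 89.2%), in dataset 2 29 of 38, or 76.3% (59.8 to 88.6%), and without uveitis 57 of 98, or 58.2% (47.8 to 68.1%). These intervals overlapped, and the other TRBV genes stood at 76.9%, 74.0% and 66.5%. By gene over all datasets, TRBV4 used TRBJ2 in 28 of 35 clonotypes and TRBV5 in 42 of 57, while TRBV2 used it in 25 of 48 and TRBV1 in 17 of 30.

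Over all datasets, the 4 genes together used the most frequent J segments at nearly the shares of the other TRBV genes. TRBJ2-7 was in 20.59% of member clonotypes against 20.15%, TRBJ2-5 in 15.88% against 15.93% and TRBJ2-1 in 12.35% against 12.67%. The counts of single genes are small, and differences between the genes were not tested. TRBV1 was joined most often to TRBJ1-1, in 7 clonotypes, then TRBJ2-7 in 5 and TRBJ2-2 in 4. TRBV2 was joined to TRBJ2-7 in 11, TRBJ2-1 in 7 and TRBJ1-2 in 6. TRBV4 was joined to TRBJ2-2 in 7, TRBJ2-7 in 7 and TRBJ2-1 in 6. TRBV5 was joined to TRBJ2-5 in 15, TRBJ2-7 in 12 and TRBJ2-1 in 7, with TRBJ2-4 also in 7. In dataset 1, TRBJ2-5 made up 7 of 12 TRBV5 clonotypes, or 58.3% (27.7 to 84.8%), against 2 of 13 in dataset 2, or 15.4% (1.92 to 45.4%), and 6 of 32 without uveitis, or 18.8% (7.21 to 36.4%). These intervals overlapped.

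In the paired TCRα, the TRAV9 family and TRAJ31 were more frequent beside the 4 genes in both uveitis datasets than in the dataset without uveitis. TRAV9 family members were found in 13 of 34 member clonotypes of dataset 1, or 38.2% (22.2 to 56.4%), in 14 of 38 of dataset 2, or 36.8% (21.8 to 54.0%), and in 14 of 98 without uveitis, or 14.3% (8.04 to 22.8%). The interval without uveitis overlapped those of both uveitis datasets. Beside the other TRBV genes the shares were 20.2%, 26.9% and 9.27%, in the same order between the conditions.

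TRAJ31 was found in 10 of 34 member clonotypes of dataset 1, or 29.4% (15.1 to 47.5%), in 7 of 38 of dataset 2, or 18.4% (7.74 to 34.3%), and in 5 of 98 without uveitis, or 5.10% (1.68 to 11.5%). Dataset 1 did not overlap with the dataset without uveitis, and dataset 2 did. Beside the other TRBV genes TRAJ31 stood at 4.81% (1.58 to 10.9%) in dataset 1, which did not overlap with the members of the same dataset. In dataset 2 the other genes were at 10.6% (5.40 to 18.1%) and without uveitis at 5.11% (2.95 to 8.17%).

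TRAV9 family and TRAJ31 occurred together in 7 member clonotypes of dataset 1, or 20.6% (8.70 to 37.9%), in 6 of dataset 2, or 15.8% (6.02 to 31.2%), and in 1 without uveitis, or 1.02% (0.0258 to 5.55%). Counted by clonotype, both uveitis datasets were above the dataset without uveitis with no overlap. These clonotypes were not all separate, since they held 5, 4 and 1 distinct CDR3α sequences, of 32, 34 and 98 distinct member CDR3α. The intervals treat them as separate and so are too narrow. No interval was computed by distinct CDR3α, so the lack of overlap is shown for clonotypes only and may come from repeated CDR3α. The pair was uneven between the 4 genes. In dataset 1 it was in 4 TRBV5, 2 TRBV2 and 1 TRBV4 clonotypes. In dataset 2 it was in 5 TRBV4 clonotypes and 1 TRBV2 clonotype, and in no TRBV5 clonotype. The 1 without uveitis was TRBV4, and TRBV1 had the pair in no dataset. The other TRBV genes had 2.88% (0.599 to 8.20%), 5.77% (2.15 to 12.1%) and 1.28% (0.349 to 3.24%).

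**Figure D4:**
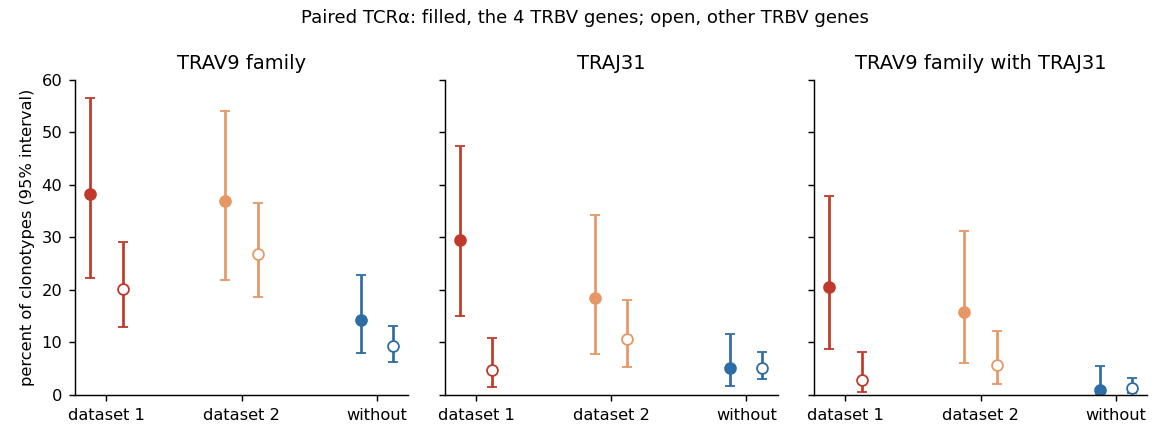
Share of clonotypes, in percent with exact 95% intervals, whose TCRα used the TRAV9 family, TRAJ31, or both together, for the 4 TRBV genes (filled) and the other TRBV genes (open). The pair stands at 20.6% and 15.8% for the 4 genes in the uveitis datasets and at 1.02% without uveitis.

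By gene, TRBV4 was paired most often with TRAV9-1, in 8 of 35 clonotypes, then TRAV6-6 and TRAV9-4 in 4 each, and with TRAJ31 in 9, TRAJ40 in 3 and TRAJ12 in 2. Its TRAV9 family share was 2 of 6 clonotypes in dataset 1, 11 of 17 in dataset 2 and 4 of 12 without uveitis. TRBV5 was paired with TRAV9-1 in 7 of 57, TRAV9-2 in 5 and TRAV6-7-DV9 in 4, and with TRAJ31 in 7, TRAJ22 in 6 and TRAJ15 in 3. TRBV2 was paired with TRAV7D-2 in 4 of 48, TRAV5-4 in 3 and TRAV6-7-DV9 in 3, and with TRAJ37 in 5, TRAJ42 in 4 and TRAJ15 in 3, with TRAJ31 among the genes tied at 3. TRBV1 was paired with no TRAV gene in more than 2 of 30 clonotypes, among them TRAV12-2, TRAV12D-2 and TRAV14N-3, and with TRAJ23 in 3, TRAJ31 in 3 and TRAJ18 in 2. Ties at the third place of these lists were broken by name. Copies of a TRAV gene such as TRAV9-1 and TRAV9D-1 are nearly identical, and calls between them are uncertain.

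None of the member cells carried the invariant TCRα of iNKT cells (TRAJ18 joined to TRAV11 or TRAV11D) or of MAIT cells (TRAV1 with TRAJ33). A count of 0 allows up to 7.89% of 38 cells in dataset 1, 4.23% of 71 in dataset 2 and 2.94% of 102 without uveitis. TRAJ18 itself was found in 1 member cell of dataset 1 and 2 without uveitis, and no member cell had a TRG or TRD contig.

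Several CDR3β were found with more than 1 TCRα. In dataset 2, the CDR3β of the 16-cell TRBV4 clonotype was in 3 clonotypes with 18 cells, that of TRBV5-TRBJ1-1 in 3 with 8 cells, that of TRBV5-TRBJ2-1 in 2 with 8 cells, and that of TRBV4-TRBJ2-2 in 3 with 7 cells. In dataset 1, the CDR3β of the TRBV2-TRBJ2-7 clonotype was in 3 clonotypes with 6 cells. Such a CDR3β made up 5 of 27 distinct member CDR3β in dataset 1, or 18.5% (6.30 to 38.1%), 5 of 30 in dataset 2, or 16.7% (5.64 to 34.7%), and 1 of 97 without uveitis, or 1.03% (0.0261 to 5.61%). The uveitis datasets were above the dataset without uveitis with no overlap, for dataset 2 by a narrow margin (5.64 against 5.61%). Only the TRA with the most UMIs of a cell was used. The part of cells with several productive TRA in these repeats was not tested. Among other TRBV genes the shares were 21.0% (12.7 to 31.5%), 7.22% (2.95 to 14.3%) and 5.44% (3.14 to 8.69%), and each overlapped with that of the members.

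The reverse was also found, a CDR3α with more than 1 CDR3β. It applied to 4 of 32 distinct member CDR3α in dataset 1, 5 of 34 in dataset 2 and 1 of 98 without uveitis, or 12.5%, 14.7% and 1.02%. Among other TRBV genes it applied to 15.1%, 7.14% and 1.63%. Counting either chain, 16 of 34 member clonotypes of dataset 1 shared a chain with another clonotype of the dataset, or 47.1% (29.8 to 64.9%), 16 of 38 of dataset 2, or 42.1% (26.3 to 59.2%), and 3 of 98 without uveitis, or 3.06% (0.636 to 8.69%). Among other TRBV genes the shares were 51.9% (41.9 to 61.8%), 23.1% (15.4 to 32.4%) and 13.1% (9.57 to 17.3%). The CDR3α of the 16-cell TRBV4 clonotype was also found in 2 cells with TRBV5-TRBJ2-1, and was chosen for printing after its values were seen, as was the CDR3α found with TRBV4-TRBJ2-2. Capitals mark bases that match neither germline V nor germline J.
CDR3α of TRAV12-2 with TRAJ22: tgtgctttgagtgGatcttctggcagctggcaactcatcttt
CDR3α of TRAV9-1 with TRAJ31: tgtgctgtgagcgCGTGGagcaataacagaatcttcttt
The second of these was found in 59 cells of dataset 2 with 6 distinct CDR3β, of which 8 cells were TRBV4, and in 2 cells of dataset 1 without a member gene. No step took out droplets with several cells, and their part in these repeats was not tested.

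One CDR3β, TRBV5-TRBJ2-5, was found in both uveitis datasets, or 1 of 27 distinct member CDR3β in dataset 1 (3.70%) and 1 of 30 in dataset 2 (3.33%), and none was shared with the dataset without uveitis. It is shown with the CDR3α of TRAV9-1 and TRAJ22 that accompanied it in 2 cells of each dataset. In the CDR3β line, capitals mark bases that match neither germline V nor J, and in the last line the base that differs between the datasets.
CDR3β in both datasets: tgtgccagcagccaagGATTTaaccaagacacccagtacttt
CDR3α in dataset 1: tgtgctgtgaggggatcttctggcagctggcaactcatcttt
CDR3α in dataset 2: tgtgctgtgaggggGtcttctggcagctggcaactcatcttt
The CDR3α differed by A15G, counted from the first base of the cysteine codon with the base of dataset 1 first, so that the clonotypes are distinct by nucleotides. This base leaves the amino acid unchanged. By V genes and CDR3 amino acids of both chains, it was the 1 member clonotype found in both uveitis datasets. No barcode was shared between these datasets. In dataset 1 the same CDR3β was also found in 1 cell with TRAV10 and TRAJ12 and in 1 cell with TRAV9-2 and TRAJ31. Its median TRB UMI count was 21 in the 2 cells of dataset 1 and 7.5 in those of dataset 2.

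In the uveitis datasets, TRBV4 had the highest share of the 4 genes in cells with another productive TRB. In dataset 2, 28 of 63 barcodes with a TRBV4 contig had another productive TRB, or 44.4% (31.9 to 57.5%), against 4 of 9 in dataset 1. Without uveitis it was 1 of 14, beside 2 of 22 for TRBV1. In 27 of these 28 barcodes it was the same pair, the TRBV4-TRBJ2-2 chain printed above and a TRBV12-2-TRBJ2-3 chain. The TRBV4 chain was in 31 barcodes in all and the TRBV12-2 chain in 40. Of the 27, 24 had a TRA, and it was the TRAV9-1 with TRAJ31 CDR3α in all 24. The TRBV12-2 contig had a median of 13 UMIs and the TRBV4 contig of 6, so that 21 of the 24 cells were counted under TRBV12-2 and 3 under TRBV4. When every productive TRB of a cell was counted, TRBV4 took 18.2% of the cells of dataset 2 and the 4 genes 28.7%. Without these cells TRBV4 took 11.3%.

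The UMIs behind a call were lowest for TRBV2. TRBV2 cells had a median of 4 TRB UMIs in dataset 1 (3 to 6, 95% interval of the median) and 7 without uveitis (5 to 9). In dataset 2 their median was 5, with 3 and 10 as the lowest and highest of only 4 cells. Cells with other TRBV genes had medians of 12 (11 to 15) in dataset 1, 11 (10 to 12) in dataset 2 and 17 (15 to 18) without uveitis. TRBV2 had the lowest median of 13 genes with at least 5 cells in dataset 1 and of 20 without uveitis, and it had too few cells to be ranked in dataset 2. The TRA of the same cells had a median of 6, 4 and 8 UMIs, against 5, 5 and 8 for cells with other TRBV genes. The TRA medians of TRBV2 cells thus lay within 1 UMI of those of the other cells. TRBV1 stood at 10.5, 9 and 20.5 TRB UMIs. TRBV4 stood at 9, 6 and 17, and TRBV5 at 13, 7 and 17.5. In dataset 2, TRBV4 and TRBV5 had the lowest medians of 12 genes, with intervals of 4 to 9 UMIs for both.

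**Figure D5:**
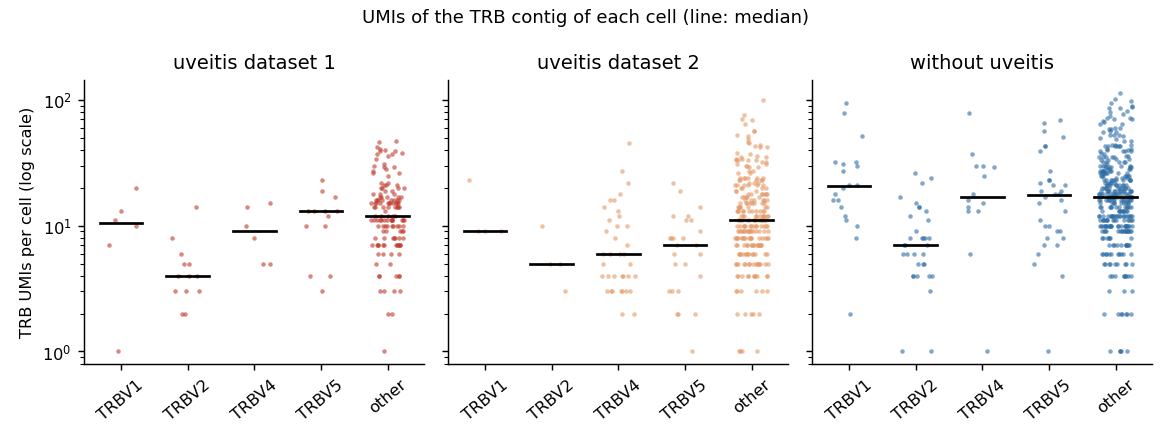
UMIs of the TRB contig of each cell on a log scale, by TRBV gene and dataset, with the median as a line and the cells of all other TRBV genes at the right. TRBV2 has its median at 4, 5 and 7 UMIs, below the 12, 11 and 17 of the other genes.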

How the data were processed

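P2-tetramer-binding CD4+ T cells were profiled by droplet TCR sequencing in 3 libraries. The authors assembled contigs with Cell Ranger, with GRCm38 and mm10 named in the submitters' processing notes, and the deposited counts of reads and UMIs per contig, whole numbers without normalization, were used with the V gene, J gene and CDR3 calls. The other 3 samples of the series hold mRNA and were not used here. Per cell, the productive contig of each chain with the most UMIs, then reads, was kept, and cells with both chains were counted. Droplets with more than 1 cell were not removed. Germline ends and gene positions came from GENCODE vM21, which held all 21 TRBV and 12 TRBJ genes used. CDR3β bases were matched to V from the start and to J from the end, V first. Clonotypes named have at least 3 cells, or 2 where a gene and dataset had no larger one; recurring CDR3β are the 5 with the most cells (2 tied at 6 cells, both named); partners are the 3 most frequent per gene. The 4 genes and the lists were chosen with earlier results of these data known. On simulated contigs and CDR3s, 18 of 18 known values were recovered. Values were computed in Python 3.11.15 (scipy 1.17.1, pandas 2.3.3, numpy 2.4.6) and plotted with matplotlib 3.10.9.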

Additional observations from a re-analysis of the deposited data

Results flagged for a closer look

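Contigs outside the counted cells also carried the 4 genes. Of the contigs with one of these V genes, 10 of 56 were not productive in dataset 1, or 17.9% (8.91 to 30.4%), above the 12.4% (7.11 to 19.6%) without uveitis with overlapping intervals, and 1.96% (0.238 to 6.90%) in dataset 2. A member gene in a second TRB was found in 2.27% (0.623 to 5.72%) of the cells of dataset 1 and 6.79% (4.30 to 10.1%) of dataset 2, against 0.213% (0.00539 to 1.18%) without uveitis. In dataset 2, 21 of these 22 cells held the TRBV4 chain beside TRBV12-2. No test between conditions was made.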

How the results depend on the processing

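Shares of cells and clonotypes, expansion, TRBJ2, CDR3β length, unmatched bases, UMIs and TRAV9 and TRAJ31 use were recomputed, each under the alternatives that bear on it, and likeness, V-end matches, single TRBJ partners and shared chains were not. For single datasets, 209 of 212 values lay within the 95% interval of the reported one, and 9 moved by over 1.5 times. In dataset 1, TRBV1 fell to 1.27% of cells and 1.65% of clonotypes with at least 2 UMIs, and TRBV4 to 2.04% and 2.65% with 1 TRA and 1 TRB. When every productive TRB of a cell was counted, TRBV4 took 18.2% and the 4 genes 28.7% of the cells of dataset 2. Without the most frequent member clonotype, an alternative chosen after seeing the data as was leaving out the cells with the TRBV4 and TRBV12-2 pair, TRBV4 took 6.82%. With dataset 1 or dataset 2 left out, the TRBV4 share of the combined uveitis cells, 8.60%, became 11.4 or 3.41%, and the expanded share of the combined member cells, 43.1%, became 57.7 or 15.8%. The SD of 2 pools cannot show stability of combined values. Wide intervals are no evidence of stability: TRBV1 and TRBV2 had 4 cells each in dataset 2. No paired analysis was possible because the dataset numbers are shared with the mRNA samples only and the dataset without uveitis has a single pool. Shares are limited by the number of cells, and calls by UMIs.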
